A study of Mus musculus with 6 samples.

Results

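The genes described here encode the nuclear subunits of respiratory complexes III and IV, of cytochrome c and of the mitochondrial ATP synthase. They were chosen by symbol alone, as the rows of the deposited table whose symbol begins with Uqcr, Cox4 to Cox8 or Atp5, or is Cyc1 or Cycs. The rule found 41 of 15282 genes, of which 9 belong to complex III, 1 is cytochrome c, 14 belong to complex IV and 17 are Atp5 genes, counted here under ATP synthase although 2 of them, Atp5s and Atp5sl, are not structural subunits. The study compared 2 states of wild type dendritic cells grown from the bone marrow of C57/BL6 mice. Both states began with 6 days in GM-CSF and IL-4, 24 hours of stimulation with LPS (bacterial lipopolysaccharide) and bead selection for CD11c. Cells taken at that point are called maDC, and cells taken after a further 9 days on spleen stroma cells are called diffDC. The sources used here do not say how diffDC were separated from the stroma.

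Complex III passes electrons from ubiquinol to cytochrome c, a small soluble carrier, and complex IV passes them from cytochrome c to oxygen. Both pump protons across the inner mitochondrial membrane, and ATP synthase lets the protons flow back through a rotating ring of c subunits to make ATP. Activated dendritic cells and macrophages are known to shift between glycolysis and this oxidative route. Some subunits of each complex are encoded by mitochondrial DNA, among them catalytic ones in complexes III and IV and membrane ones in ATP synthase. The 6 mitochondrially encoded subunits of these complexes were not analysed here.

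Each group had 3 libraries by its labels, whereas the table held 1 pooled read number for a gene in each group, with totals of 69190437 reads in maDC and 89836110 in diffDC. No difference below has a replicate check, and no p-value across libraries could be computed. Ratios are diffDC over maDC on a log2 scale after TMM scaling, a library factor computed on the premise that most genes do not change. A gene was called, and is said to have risen or fallen, when it passed 2-fold in either direction with an exact 95% interval clear of equality. Counting error is all that the intervals cover. The authors' own library factor lies 0.44 lower, so every log2 ratio is higher by 0.44 on their scale. The median log2 ratio over 9957 genes at or above 5 CPM on average (the read number relative to the library total) was 0.06 here and 0.49 on the authors' scale.

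Most of the 41 genes lay close to no change between maDC and diffDC. Uqcr11, Atp5g1 and Cox7a1 rose, Cox5a and Cox6a2 fell, and the other 36 genes stayed under 2-fold. The 5 called genes are 12.2% of the 41, beside 44.3% of all genes in the table. For rises the share over all genes was 23.3% and for falls 21%. Among the 37 genes of at least 5 CPM, 3 were called, or 8.11%, beside 37.7% of all genes above that level, and at 25 CPM 3 of 33 were called, beside 35.4%. With the authors' factor 7 of the 41 were called, beside 47.8% of all genes, 6 of them higher, beside 32.1%, and 1 lower, beside 15.7%. At a limit of 1.5-fold 12 were called, beside 59.2%. The median log2 ratio of the 41 genes was 0.00, with 21 above 0 and 20 below, and on the authors' scale it was 0.44, with 31 above 0. The interquartile range of their log2 ratios was 0.78 wide, beside 1.89 for all genes. Among genes of at least 5 CPM it was 0.68 wide for members of the 41, beside 1.43 for all genes above that level. Counting error was small at this depth. The interval of 37 of the 41 genes excluded no difference, as did that of 84.6% of all genes and 93.8% of those of at least 5 CPM, so the size of a ratio says more here than its interval. By the q-values of the authors' deposited table, 39 of the 41 genes were under 0.05, beside 87.2% of all genes, and Cyc1 and Uqcrq were the exceptions. By the authors' deposited table, too, 31 of these genes were higher, beside 58.2% of all genes, and 8 were lower, beside 29.1%.

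**Figure D1:**
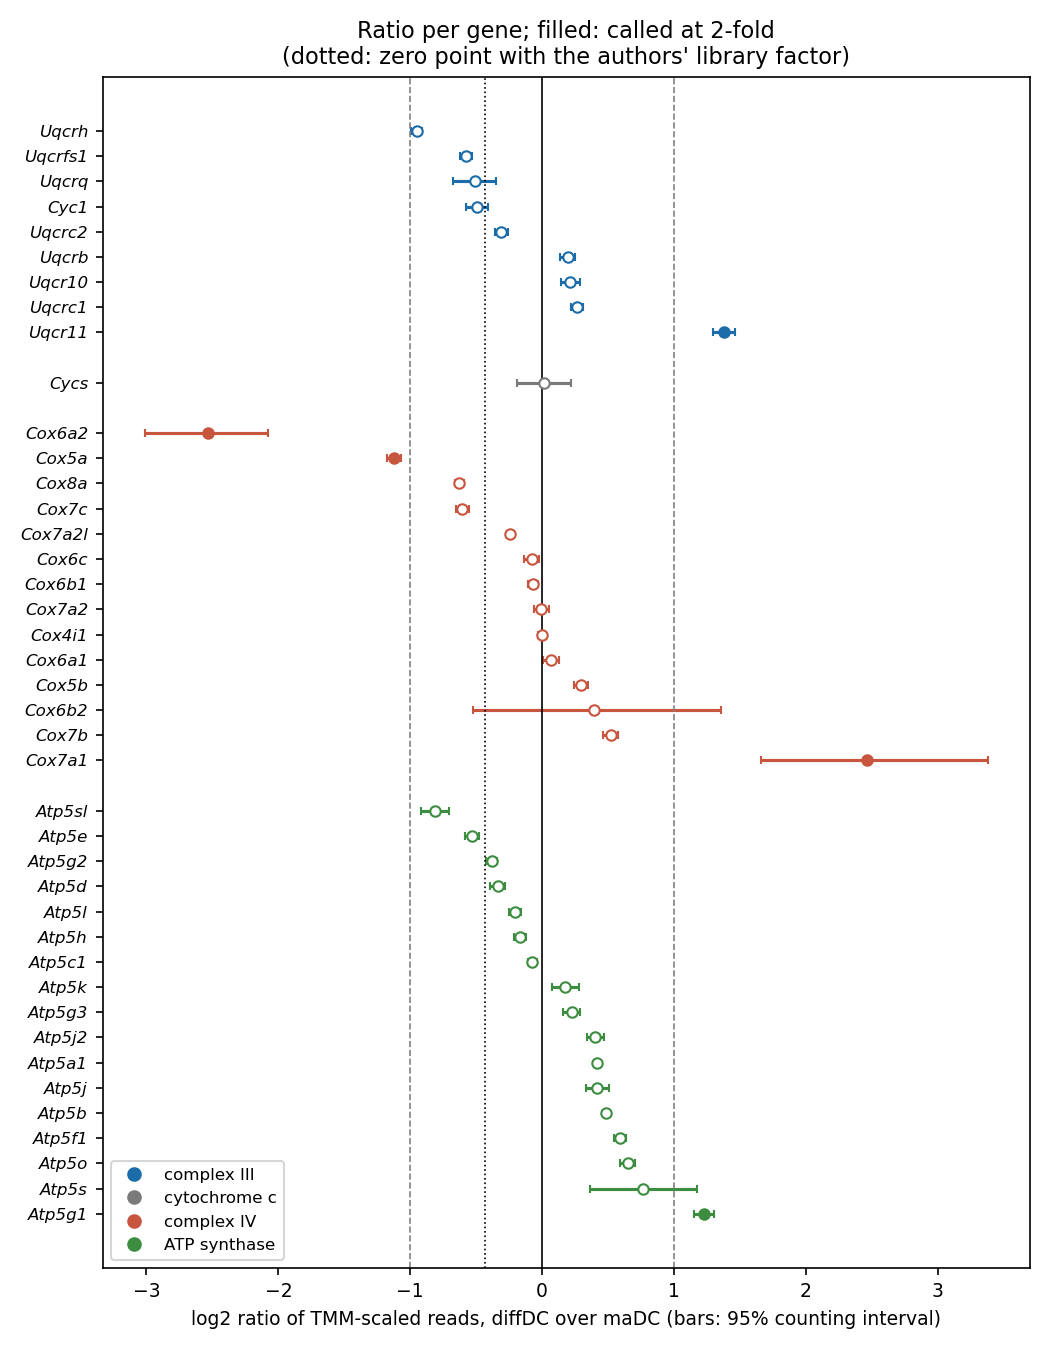
Log2 ratio of scaled reads, diffDC over maDC (horizontal axis), for each of the 41 genes (vertical axis), grouped and coloured by complex. Points are ratios of pooled reads, bars are 95% counting intervals, dashed lines mark 2-fold and the dotted line marks no change on the authors' scale; filled points are the 5 called genes, from Cox6a2 at -2.53 to Cox7a1 at 2.46.

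The start regions of 6 genes are shown because the results below turn on them. Uqcr11 and Cox5a are the called subunits of at least 5 CPM in complexes III and IV, Cox7a1 had the largest rise, and Atp5g1, Atp5g2 and Atp5g3 are separate genes for one and the same ring subunit. The sequences are from RefSeq on GRCm38.p6 and give the 250 bases before each transcription start, 5′ to 3′. Capitals mark matches to 5 motifs described further on. The region printed for Atp5g2 lies within that gene as GENCODE M21 places it, from 102662864 to 102672352. The RefSeq start used for Atp5g2 is thus not the outer end of the gene in GENCODE.
Uqcr11, chr10:80406822-80407071, minus strand: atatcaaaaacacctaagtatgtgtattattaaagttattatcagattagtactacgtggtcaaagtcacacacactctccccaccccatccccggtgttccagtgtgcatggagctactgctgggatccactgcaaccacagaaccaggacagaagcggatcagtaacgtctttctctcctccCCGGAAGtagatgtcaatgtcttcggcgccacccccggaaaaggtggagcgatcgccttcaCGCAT
Cox5a, chr9:57520982-57521231, plus strand: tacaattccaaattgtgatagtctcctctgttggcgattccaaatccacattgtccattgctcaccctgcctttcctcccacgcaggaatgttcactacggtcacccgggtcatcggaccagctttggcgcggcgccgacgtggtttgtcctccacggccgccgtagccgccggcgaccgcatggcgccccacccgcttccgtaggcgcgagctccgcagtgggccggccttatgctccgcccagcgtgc
Cox7a1, chr7:30183921-30184170, plus strand: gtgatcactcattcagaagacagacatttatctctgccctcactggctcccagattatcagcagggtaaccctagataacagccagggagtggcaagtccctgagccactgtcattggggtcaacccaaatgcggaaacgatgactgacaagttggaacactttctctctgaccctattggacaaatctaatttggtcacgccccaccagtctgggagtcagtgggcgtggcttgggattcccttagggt
Atp5g1, chr11:96075632-96075881, minus strand: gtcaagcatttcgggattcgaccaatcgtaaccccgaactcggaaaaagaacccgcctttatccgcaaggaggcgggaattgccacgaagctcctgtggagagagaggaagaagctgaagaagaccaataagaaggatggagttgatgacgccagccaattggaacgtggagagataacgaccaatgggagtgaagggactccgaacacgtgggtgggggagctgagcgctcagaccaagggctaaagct
Atp5g2, chr15:102671048-102671297, minus strand: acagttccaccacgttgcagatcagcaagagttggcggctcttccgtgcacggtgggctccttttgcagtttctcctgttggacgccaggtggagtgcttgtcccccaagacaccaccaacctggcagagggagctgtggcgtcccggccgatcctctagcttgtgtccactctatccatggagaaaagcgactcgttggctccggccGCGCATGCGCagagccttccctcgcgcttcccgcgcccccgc
Atp5g3, chr2:73911327-73911576, minus strand: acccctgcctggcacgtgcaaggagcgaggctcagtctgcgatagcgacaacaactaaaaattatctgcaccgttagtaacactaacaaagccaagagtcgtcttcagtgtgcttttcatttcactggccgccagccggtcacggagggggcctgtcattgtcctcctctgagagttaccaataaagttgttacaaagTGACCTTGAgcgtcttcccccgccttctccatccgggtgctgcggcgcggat

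In complex III, 1 of 9 genes rose and none fell at 2-fold, beside 23.3% and 21% of all genes in the table. Uqcr11, a small subunit at the edge of the complex, had 1515 reads in maDC and 5818 in diffDC. After scaling it was 2.60-fold higher in diffDC (interval 2.46 to 2.75). It lies on the minus strand of chromosome 10, from 80402997 to 80406830 in GRCm38 (GENCODE M21), is protein coding and overlaps no other annotated gene. Uqcrh, the hinge subunit that helps cytochrome c dock on cytochrome c1, was counted with 10197 reads in maDC and 7799 in diffDC. Its log2 ratio of -0.95 (interval -0.99 to -0.91) was just short of the limit for a fall, and it was -0.51 on the authors' scale.

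The catalytic and core subunits of complex III stayed nearer to no change. Uqcrfs1, the Rieske iron-sulfur protein, had 7239 and 7175 reads in maDC and diffDC, giving a log2 ratio of -0.58. Cyc1, the cytochrome c1 subunit, had 2387 and 2508 reads, a log2 ratio of -0.49. The large core proteins Uqcrc1 and Uqcrc2 had log2 ratios of 0.26 and -0.31, and their intervals did not overlap. These core proteins form a structural base together. The pair differed by more than counting error, though by less than 2-fold, and the spread between libraries is unknown. The remaining small subunits Uqcrb, Uqcr10 and Uqcrq were at 0.20, 0.21 and -0.51. The median log2 ratio over complex III was -0.31, which became 0.13 on the authors' scale.

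Cycs, the electron carrier itself and also a trigger of apoptosis once released to the cytosol, had 326.96 reads in maDC and 488.17 in diffDC. Its log2 ratio was 0.02 (interval -0.19 to 0.22). It ranked among the 5 lowest of the 41 genes in both pools. Its level was 1.65 scaled RPKM (the read number relative to gene length and scaled library size) in maDC and 1.67 in diffDC, at a deposited length of 3059 bases. The read numbers carry decimals, so reads shared with other loci could have been divided.

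In complex IV, 1 of 14 genes rose and 2 fell, beside 23.3% and 21% of all genes in the table. Among its genes of at least 5 CPM, Cox5a alone was called, beside 37.7% of all genes above that level. Cox5a, a subunit on the matrix side, had 7050 reads in maDC and 4793 in diffDC and was 2.17-fold lower in diffDC (interval 2.09 to 2.25). It is a protein-coding gene on the plus strand of chromosome 9, from 57521274 to 57532426 in GRCm38, and its start overlaps a long noncoding gene on the opposite strand. The call was lost with the authors' factor, at a log2 ratio of -0.68, and with total reads as library size, at -0.93.

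Cox5b, the zinc-binding partner on the same side of complex IV, had 4866.66 reads in maDC and 8830 in diffDC, giving a log2 ratio of 0.30. The intervals of Cox5a and Cox5b lie far apart, and this contrast within the complex does not depend on the library factor. Cox4i1, the largest nuclear subunit and a common reference for the complex, had 15886 and 23475 reads in maDC and diffDC, giving a log2 ratio of 0.00 (interval -0.03 to 0.03). Cox7b, a small membrane subunit, reached 0.52. Cox8a and Cox7c, also small membrane subunits, were at -0.63 and -0.60.

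The other common subunits of complex IV, Cox6a1, Cox6b1, Cox6c and Cox7a2, had log2 ratios between -0.08 and 0.07. Cox7a2l, which joins complexes III and IV into supercomplexes and which C57BL/6 mice are known to carry in a shortened form, had 22576.64 reads in maDC and 28197.25 in diffDC. Its log2 ratio was -0.24. The median over the 14 genes was -0.04, which became 0.40 on the authors' scale.

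Subunits of complex IV with tissue-specific forms showed the widest ratios, at low read numbers. Cox6a2, the heart and skeletal muscle form of subunit 6a, had 196 reads in maDC and 50 in diffDC, 5.79-fold lower (interval 4.23 to 8.07). Its share of subunit 6a reads was 4.82% in maDC (exact interval 4.18 to 5.52) and 0.827% in diffDC (interval 0.615 to 1.09), the rest being Cox6a1. Cox6a2 lies on chromosome 7, minus strand, from 128205435 to 128206387, where the annotation places Itgad, an integrin gene of myeloid cells, on the opposite strand. Itgad itself had 65.68 reads in maDC and 6.05 in diffDC. The sources used here do not say whether counting used strand, so reads of the 2 genes cannot be told apart.

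Cox7a1, the muscle and brown fat form of subunit 7a, had 14 reads in maDC and 114 in diffDC, 5.51-fold higher (interval 3.15 to 10.4). It made up 0.312% of subunit 7a reads in maDC (interval 0.170 to 0.522) and 1.70% in diffDC (interval 1.40 to 2.04), with Cox7a2 giving the rest. Cox7a1 spans 30184144 to 30186078 on the plus strand of chromosome 7 and overlaps no annotated gene. Cox6b2, the testis form of subunit 6b, had 16 and 31 reads in maDC and diffDC and a log2 ratio of 0.39 (interval -0.52 to 1.36), which was not called. The table had no row for Cox4i2, Cox7b2, Cox8b or Cox8c.

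Marker genes of the tissues that could carry these forms were read in the same pools. Over all genes in the table, 23.3% rose and 21% fell. Of 18 fibroblast and reticular stroma markers, 16 were measured, none was at 0 in either pool, 12 rose and 2 fell, and their summed level went from 143 CPM in maDC to 2467 in diffDC. Fn1, fibronectin, which macrophages also make, held 122 CPM of that sum in maDC and 1532 in diffDC. Without Fn1, left out after its values were seen, the other 15 markers summed to 20.9 and 935 CPM, with 11 higher and 2 lower. Of 12 pericyte and smooth muscle markers, 9 were measured, 3 rose and 2 fell, with summed levels of 3.53 and 22.5 CPM. Acta2, named after its values were seen, held 0.853 CPM of that sum in maDC and 17.1 in diffDC. Of 14 striated muscle markers, 9 were measured, 1 rose and 5 fell, with summed levels of 9.85 and 5.17 CPM. Tnnt3, named after its values were seen, held 7.62 CPM of that sum in maDC and 3.45 in diffDC. Ckm, muscle creatine kinase, had 14 and 5 reads. Cox7a1 itself was at 0.202 CPM in maDC and 1.27 in diffDC. The part of stroma in its rise was not tested.

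In ATP synthase, 1 of 17 genes rose and none fell, beside 23.3% and 21% of all genes in the table. The catalytic F1 head is built mainly from Atp5a1 and Atp5b, the alpha and beta subunits, which held the most reads of all 41 genes. Atp5b had 27520 reads in maDC and 56997 in diffDC, giving a log2 ratio of 0.49 (interval 0.47 to 0.51). Atp5a1 had 27573 and 54245 reads in maDC and diffDC, giving a log2 ratio of 0.41. The gamma, delta and epsilon subunits of the central stalk, Atp5c1, Atp5d and Atp5e, were at -0.07, -0.34 and -0.53. The alpha and beta genes thus had higher ratios than the central stalk genes, by more than counting error.

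The peripheral stalk, which holds the head still against the ring, had log2 ratios of 0.65 for Atp5o (subunit OSCP), 0.59 for Atp5f1 (subunit b), 0.42 for Atp5j (subunit F6) and -0.17 for Atp5h (subunit d). Atp5o had 3482 reads in maDC and 8073 in diffDC, and Atp5f1 had 6121 and 13609.09. On the authors' scale Atp5o and Atp5f1 were called, at 1.09 and 1.03. Atp5f1 overlaps Wdr77 on the opposite strand, which had 905 reads in maDC and 3386 in diffDC. The small membrane subunits Atp5j2, Atp5k and Atp5l were at 0.40, 0.18 and -0.21.

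The table holds a pair of Atp5 genes that are not structural subunits. Atp5s, an ATP synthase coupling factor now also named Dmac2l, had 71.98 reads in maDC and 180.44 in diffDC, giving a log2 ratio of 0.76 that was called only on the authors' scale, at 1.20. Atp5sl, now Dmac2, is an assembly factor of complex I, and had 1484 and 1249 reads in maDC and diffDC, giving a log2 ratio of -0.81. The median over the 17 Atp5 genes was 0.22, with 10 above 0 and 7 below. It ranged from 0.16 with genes of at least 5 CPM only to 0.66 on the authors' scale. The zero point moves with the scaling. The median of all genes of at least 5 CPM was 0.06 here and 0.49 on the authors' scale. Without Atp5s and Atp5sl, left out after the data had been seen, the median of the other 15 genes was also 0.22, with the same 1 rise.

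The ring subunit c showed a change in which gene supplied its transcripts. Atp5g1, Atp5g2 and Atp5g3 encode the same mature protein behind different import sequences. Atp5g1 had 1732.2 reads in maDC and 5997.22 in diffDC, 2.34-fold higher (interval 2.22 to 2.47). Atp5g2 had 9655.13 and 10938.79 reads in maDC and diffDC, giving a log2 ratio of -0.38, and Atp5g3 had 3329 and 5742 reads, a log2 ratio of 0.22. The share of Atp5g1 in the reads of the 3 genes went from 11.8% in maDC (interval 11.3 to 12.3) to 26.4% in diffDC (interval 25.9 to 27.0). That of Atp5g2 went from 65.6% (interval 64.8 to 66.4) to 48.2% (interval 47.6 to 48.9), and that of Atp5g3 from 22.6% to 25.3%.

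Shares within a pool do not depend on the library factor. The summed reads of the 3 ring genes were 14716.33 in maDC and 22678.01 in diffDC, giving a log2 ratio of 0.06 (interval 0.03 to 0.09). Unlike the shares, this sum depends on the library factor and is higher by 0.44 on the authors' scale. After correction for length, Atp5g1 gave 9.97% of the ring transcripts in maDC and 23.1% in diffDC. Atp5g1 (chromosome 11, minus strand, 96068852 to 96075670) overlaps no annotated gene. The read numbers of Atp5g1 and Atp5g2 carry decimals, so reads could have been divided among related loci.

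**Figure D2:**
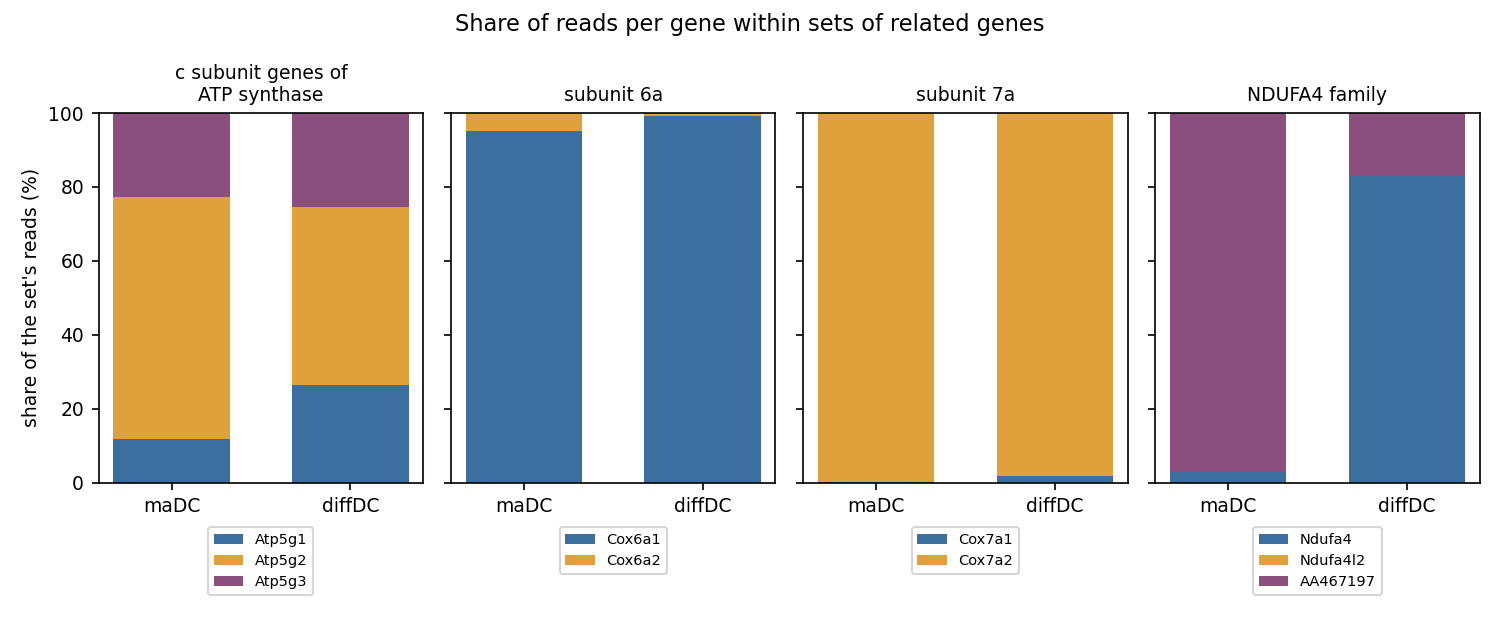
Share of reads per gene (vertical axis, percent of the reads of the set) in the maDC and diffDC pools for the c subunit genes, subunit 6a, subunit 7a and the NDUFA4 family. Atp5g1 takes 11.8% of the ring reads in maDC and 26.4% in diffDC, and AA467197 takes 97.0% of the NDUFA4 family in maDC and 16.9% in diffDC.

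Levels were compared between genes per length, as scaled RPKM with the deposited gene lengths. In maDC the highest levels were those of Cox8a at 357, Cox4i1 at 330, Cox7a2l at 322, Uqcrh at 288 and Cox6b1 at 275. In diffDC the order began with Cox4i1 at 330, Atp5b at 317, Cox7a2l at 272, Cox6b1 at 262 and Atp5a1 at 233, with Cox8a next at 231. Atp5b moved from rank 7 in maDC to rank 2 in diffDC, and Uqcrh from rank 4 to rank 11. Uqcr11 moved from rank 29 to rank 14 and Cox5a from rank 13 to rank 27. No replicate spread is at hand to separate neighbours in these orders.

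The lowest levels belonged to the same 5 genes in both pools: Cox6b2, Cox7a1, Atp5s, Cycs and Cox6a2, with levels from 0.490 to 4.59 in maDC and from 0.642 to 3.25 in diffDC. Uqcrq, a complex III subunit used by all respiring cells, came next, at 6.15 in maDC and 4.32 in diffDC. Its deposited length was 1525 bases, while its coding transcripts in GENCODE M21 run from 405 to 1521 bases, and its level per length moves with that choice.

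**Figure D3:**
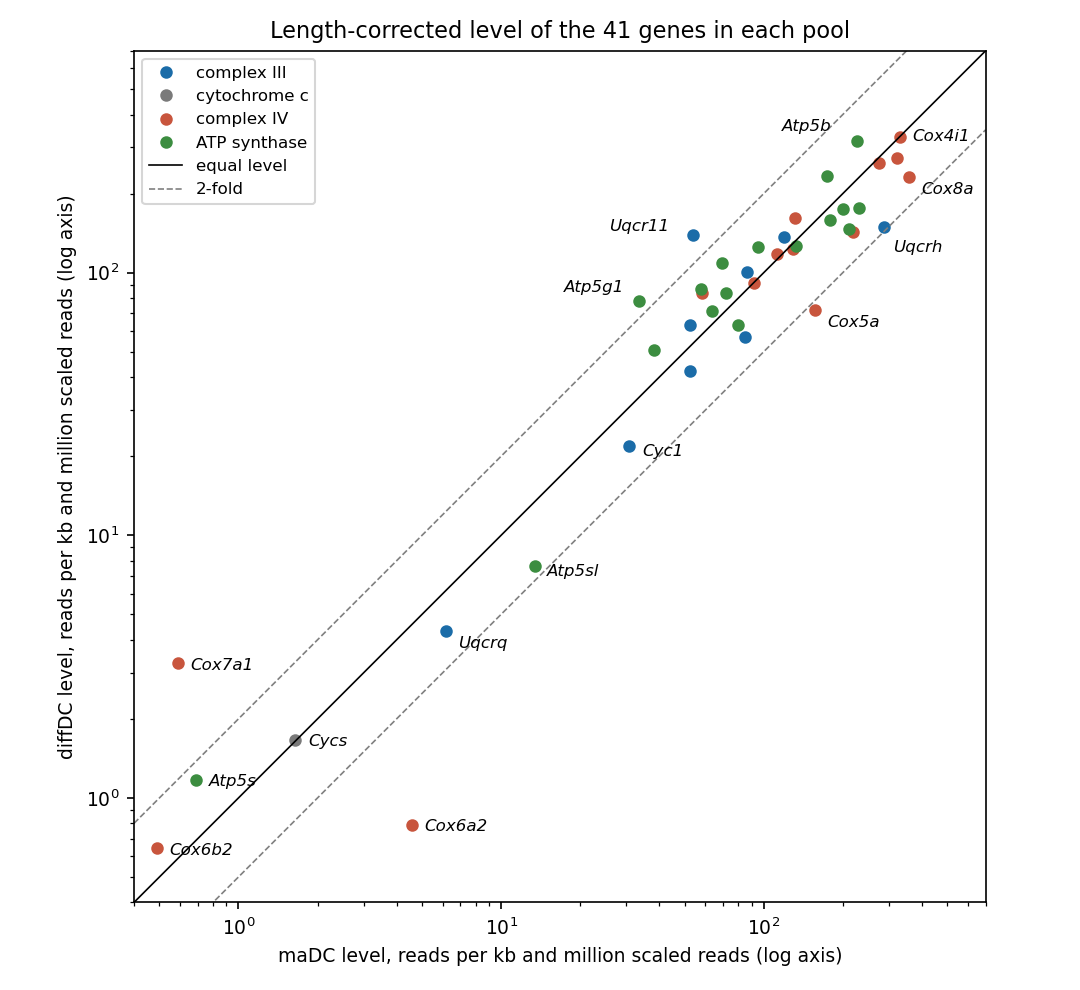
Length-corrected level of each of the 41 genes in maDC (horizontal axis) and diffDC (vertical axis), in scaled RPKM on log axes, coloured by complex. The solid line marks equal levels and the dashed lines 2-fold; Cox4i1 sits on the solid line at 330, and Uqcr11, Atp5g1 and Cox7a1 lie above the upper dashed line.

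Between the complexes, ATP synthase took a larger part of the reads in diffDC. Of the reads of the 41 genes, 47.2% fell on ATP synthase genes in maDC (interval 47.0 to 47.4) and 54.6% in diffDC (interval 54.5 to 54.8). The share of complex IV went from 37.0% to 31.7% and that of complex III from 15.7% to 13.5%. Without Atp5a1 and Atp5b, a comparison added after the data had been seen, the share of ATP synthase was 32.8% in maDC and 36.4% in diffDC. Without Atp5s and Atp5sl it was 46.9% and 54.5%. The summed reads had log2 ratios of 0.24 for ATP synthase, -0.19 for complex IV and -0.19 for complex III. All reads of the library together also stood at -0.19 on this scale. Of all reads, complex III took 0.0583% and complex IV 0.137% in both pools. ATP synthase took 0.175% of all reads in maDC and 0.236% in diffDC. On the authors' scale, 0.44 higher, all of these sums were positive. Together the 41 genes took 0.371% of all reads in maDC and 0.431% in diffDC.

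The NDUFA4 family, named for a complex IV subunit first described in complex I, held a larger fall than any of the 41 genes. AA467197, which the deposited annotation names Nmes1, is a relative of NDUFA4 that inflammatory stimuli are known to induce and that can take the place of NDUFA4 in complex IV. It had 41353 reads in maDC and 781 in diffDC, 78.2-fold lower (interval 72.9 to 84.1). Ndufa4 had 1287 reads in maDC and 3831 in diffDC, 2.01-fold higher (interval 1.89 to 2.15), a call that was lost with median-of-ratios size factors. Ndufa4l2 had 3 reads in each pool.

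The balance within the NDUFA4 family did not depend on the library factor. AA467197 held 97.0% of its reads in maDC (interval 96.8 to 97.1) and 16.9% in diffDC (interval 15.9 to 18.0), and Ndufa4 held 3.02% and 83.0%. Per length, AA467197 stood at 993 scaled RPKM in maDC, above each of the 41 subunit genes there, and at 12.7 in diffDC. Ndufa4 stood at 40.3 in maDC and 81.3 in diffDC.

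Of 24 measured assembly factors of complex IV, 3 rose and 3 fell, beside 23.3% and 21% of all genes in the table. Lrpprc, which stabilises mitochondrial messenger RNAs, had 1556.7 reads in maDC and 9717.29 in diffDC, 4.22-fold higher. Sco1, which delivers copper to the catalytic core, had 5309.31 and 1943.63 reads in maDC and diffDC, 4.04-fold lower, and Cmc2, a small factor of complex IV biogenesis, had 2982 and 915 reads, 4.82-fold lower. Cox17, which hands copper to Sco1, was 3.95-fold lower, while Sco2, the close relative of Sco1, was 2.90-fold higher and Cox16 3.12-fold higher. Cox17, Sco2 and Cox16 were named after their values were seen. The remaining 18 factors were not called, and the median over the 24 was -0.15. On the authors' scale it was 0.29, with 6 higher and 3 lower.

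Of 6 assembly factors of complex III, 2 rose and none fell, beside 23.3% and 21% of all genes in the table. On the authors' scale 4 were higher, beside 32.1% of all genes. Bcs1l, the chaperone that inserts the Rieske protein, had 210 reads in maDC and 881 in diffDC, 2.84-fold higher (interval 2.44 to 3.32). Lyrm7, which holds the Rieske protein before insertion, had 43.71 and 204.87 reads in maDC and diffDC and was 3.17-fold higher; it was named after its values were seen. The Rieske subunit itself, Uqcrfs1, had the log2 ratio of -0.58 given above. None of 6 measured assembly factors, accessory subunits and inhibitors of ATP synthase was called. Atpif1, the inhibitor of ATP hydrolysis, had 4811 reads in maDC and 9585 in diffDC, giving a log2 ratio of 0.43. Hccs, which attaches haem to cytochrome c, was at 0.20.

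Other mitochondrial gene sets gave a scale for these values. For the counts that follow, 23.3% of all genes in the table rose and 21% fell. On the authors' scale these shares were 32.1% and 15.7%. Of 36 complex I subunit genes, 2 rose and 1 fell, with a median log2 ratio of 0.18. On the authors' scale 8 passed as higher and 1 as lower, and the median was 0.61. Ndufa12 and Ndufb2 were 2.70-fold and 2.37-fold higher, and Ndufa7, named after its values were seen, was listed at 66.45 reads in maDC and 0 in diffDC. Complex II, with 8 genes, had 1 rise and 2 falls around a median of 0.23. These calls were all of assembly factors, but with the authors' factor or total reads the structural subunit Sdhc (1.37 and 1.12) and the assembly factor Sdhaf3 (1.35 and 1.10) were called higher and Sdhaf2 (-0.65 and -0.90) was lost, leaving 3 higher and 1 lower. Sdhc and Sdhaf3 were named after their values were seen. Sdhaf4 was 5.82-fold higher, and Sdhaf1 and Sdhaf2 were 3.19-fold and 2.13-fold lower. Among 77 mitochondrial ribosomal protein genes were 7 rises and 4 falls around a median of 0.19. Mrpl28 and Mrps14 were 3.46-fold and 2.74-fold higher and Mrps6 2.58-fold lower. On the authors' scale all 4 falls were lost, Mrps6 being at -0.93, and 17 genes were higher, with a median of 0.63. No test of the difference between these sets was run.

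**Figure D4:**
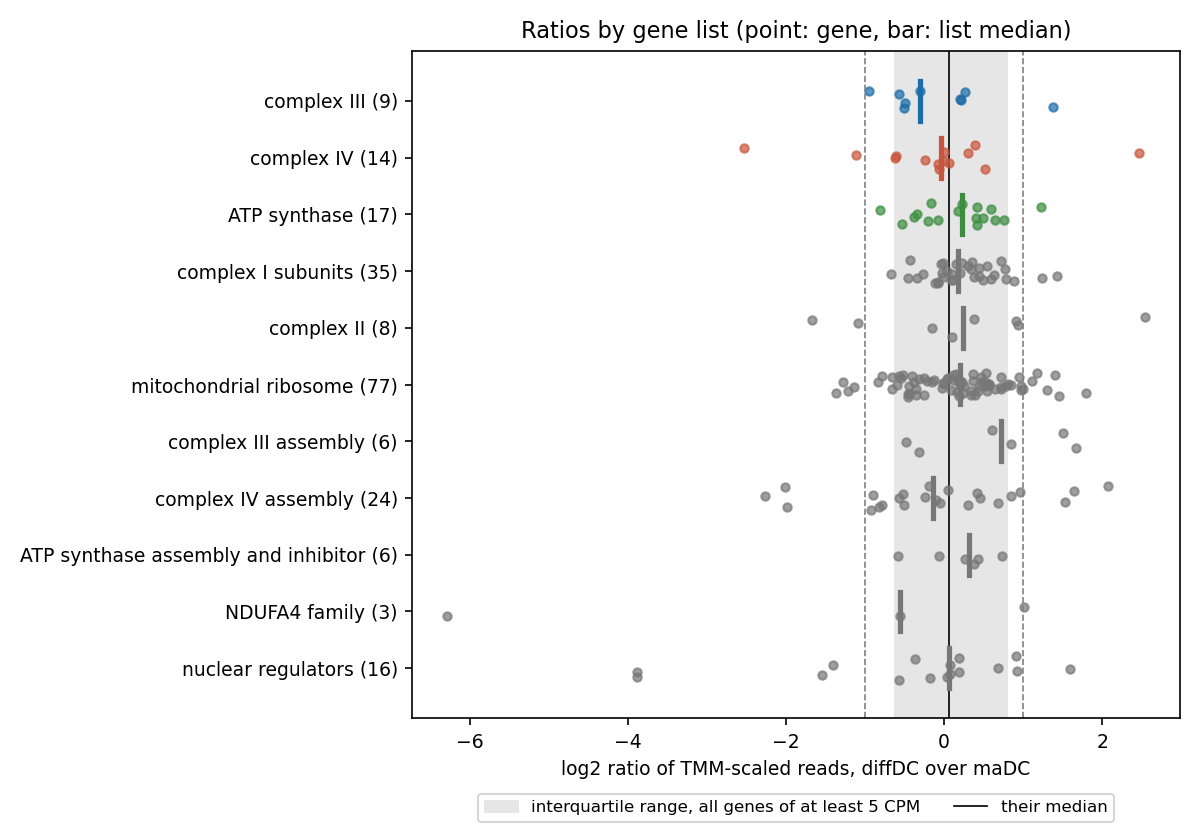
Log2 ratio of scaled reads, diffDC over maDC (horizontal axis), for genes of each list (vertical axis, number of genes plotted in brackets); points are genes with reads in both pools and bars are list medians (Ndufa7, at 0 in diffDC, is not plotted but counts in the median). The grey band is the interquartile range of all genes of at least 5 CPM, and the medians of complexes III and IV and of ATP synthase, at -0.31, -0.04 and 0.22, lie within it.

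The start regions shown above were searched for motifs of factors known to act on respiratory genes. A start region here runs from 250 bases before to 50 after the start, and RefSeq held one for 33 of the 41 genes; Atp5a1, Cox4i1, Cox6a2, Cox6c, Cyc1, Uqcrb, Uqcrc2 and Uqcrq had no entry. The searches were for GCGCATGCG (NRF1), CCGGAAG (GABP and other ETS factors), TCAAGGTCA (oestrogen-related receptors), AAGATGGCG (YY1) and TATAAA, on both strands. In the 6 regions shown, matches to different motifs did not overlap. The NRF1 letters were found in 7 of the 33 genes (21.2%), beside 4.38% of 8067 other genes of at least 5 CPM and 1.95% of all 27025 genes with an entry.

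The GABP letters were found in 10 of the 33 genes (30.3%), beside 22.3% of the other genes of at least 5 CPM and 9.93% of all genes. The YY1 letters were in 3 (9.09%), beside 4.09% of the other genes of at least 5 CPM and 1.64% of all genes. The oestrogen-related receptor letters were in 1 (Atp5g3), beside 0.285% and 0.466%, and TATAAA in 1 (Atp5l), beside 8.70% and 15.7%. In the regions printed above, Uqcr11 holds CCGGAAG from base -66 to -60 and the NRF1 letters on the opposite strand from base -5 to 4, the last of which lie beyond the printed part. Atp5g2 holds the NRF1 letters on both strands, overlapping each other, between bases -42 and -33, and Atp5g3 holds the receptor letters on the opposite strand from base -52 to -44. In the regions of Atp5g1, Cox5a and Cox7a1 none of these letters was found. The median log2 ratio was 0.07 for the 7 genes with the NRF1 letters and 0.10 for the 26 without. It was -0.12 for the 10 genes with the GABP letters and 0.22 for the 23 without, a difference that was not tested. A match is a description of the letters and not of binding.

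Markers of the labelled cells differed between the pools beside all of these values. Over all genes in the table, 23.3% rose and 21% fell. All 14 dendritic cell markers had reads in both pools, and 13 fell, with a summed level of 14068 CPM in maDC and 852 in diffDC. Itgax, the gene of the CD11c selection marker, was not called, and its log2 ratio of -0.21 turned positive on the authors' scale. Of 10 macrophage markers 9 rose, with summed levels of 1307 CPM in maDC and 15279.5 in diffDC. Of 6 endothelial markers 5 were measured and 4 fell, with summed levels of 171 and 43.5 CPM. Kdr, named after its values were seen, held 160 CPM of that sum in maDC and 41.7 in diffDC. Lists for B cells, T cells, granulocytes and erythroid cells summed to at most 33.3 CPM in either pool. In pooled RNA, fewer cells of a type and less RNA per cell cannot be told apart, and the part of these shifts in the subunit ratios was not tested.

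Gene length and annotation were set beside the ratios, and an effect of either on any value was not tested. Of the genes of at most 500 bases and at least 5 CPM outside the 41, 97 in number, the median log2 ratio was 0.77, while the 7 of the 41 genes in that length range at any level, Uqcr11 and Cox7a1 among them, had a median of 0.21. For lengths over 500 and up to 700 bases the medians were 0.11 for 172 other genes and -0.12 for 14 of the 41. Of the 41 genes, 12 had read numbers with decimals in at least 1 pool. Positions were found for 40 of them, and 9 overlap a protein-coding gene on the opposite strand. Atp5o was not placed, so its overlaps were not checked.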

How the data were processed

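The deposited table gave 1 pooled read number per gene for maDC and for diffDC, each standing for 3 libraries per the labels. The authors' deposited read numbers are expected counts, read as such because they carry decimals; they were rounded to whole numbers for the scaling factors only. The table also held, per the file headers, a log2 ratio, a p-value and a q-value after Storey by the authors, and a gene length. The submitters' processing notes name the builds GRCm38.p4 and mm10; the aligner, the counter, strand use and the way of pooling are not given in the sources used here. The library factor of the authors' deposited log2 ratios was constant within 0.001 in all but 1 of 14573 genes with reads in both groups.

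Reads were scaled with TMM factors (0.9374 and 1.0667) from edgeR 4.0.16 in R 4.3.3, a log2 library ratio of 0.563. Ratios carry exact Clopper-Pearson 95% intervals. A value of 0.5 replaced 0. A gene was called at 2-fold with an interval excluding no difference. The edgeR test planned for replicate libraries needs values per library and was not run. Every called member, every isoform and, per list, up to the 3 largest calls of at least 5 CPM were named. The members, lists and tests were chosen with earlier results of these data known. Alternatives were other library factors, a CPM limit, another value for 0 and a 1.5-fold limit. The procedure was tried on simulated reads with few genes changed, as many up as down, and with counting error only. That setting differs from these data, so it cannot check the TMM premise or the spread between libraries. Positions are from GENCODE M21. Intervals came from scipy 1.17.1 and numpy 2.4.6, tables from pandas 2.3.3 and plots from matplotlib 3.10.9, under Python 3.11.15.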

Additional observations from a re-analysis of the deposited data

How the results depend on the processing

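No paired analysis was possible because the table holds pooled values without replicate numbers; leaving out each replicate was not run for the same reason. With the authors' library factor, 6 of the 41 genes were called higher and 1 lower, beside 32.1% and 15.7% of all genes. Atp5f1, Atp5o and Atp5s were added and Cox5a was lost. The median log2 ratios were then 0.13 for complex III, 0.40 for complex IV, 0.66 for ATP synthase and 0.44 over all 41. Calls were 4 for complex III assembly and 1 for ATP synthase assembly. They were 9 for complex I, 8 of them higher, and 17 for the mitochondrial ribosome, all higher. Over all genes in the table, 47.8% were called with this factor, 32.1% higher and 15.7% lower. With total reads as library size, 1 gene was called lower, and the medians were -0.12, 0.15, 0.41 and 0.19 in the same order. With median-of-ratios size factors, the medians for complex IV, ATP synthase and all genes were -0.0562, 0.21 and -0.0173, and 1 gene of the NDUFA4 family was called. With genes of at least 5 CPM only, 3 genes were called, 1 of them lower, since Cox7a1 and Cox6a2 were left out. The library factor also differed in this setting, which moved every log2 ratio by -0.039. The medians were then -0.35, -0.11, 0.16 and -0.0452, with 1 call each for complex III assembly and the NDUFA4 family and 2 for the nuclear regulators. At a limit of 1.5-fold, 12 genes were called, 6 higher and 6 lower, beside 59.2% of all genes. Calls at that limit were 4 for complex III assembly, 13 for complex IV assembly, 1 for ATP synthase assembly, 5 for complex II, 8 for the regulators, 10 for complex I and 26 for the mitochondrial ribosome. A value of 1 in place of 0 changed none of these counts and medians. Uqcr11, Atp5g1, Cox7a1 and Cox6a2 were called in the same direction under every library factor tried. The differences between library factors move all genes by the same amount. Depth limits the values of Cox6b2, Cox7a1 and Cox6a2, and the spread between libraries is unknown for every value.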

Other observations

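Nuclear regulators of respiratory genes went both ways. Of 16 measured regulators, 1 rose and 4 fell, beside 23.3% and 21% of all genes in the table. Their median log2 ratio was 0.06. On the authors' scale 4 passed as higher and 3 as lower, beside 32.1% and 15.7% of all genes, and the median was 0.49. Hcfc1 (1.36), Polrmt (1.34) and Pprc1 (1.11), named after their values were seen, were added there and Ppargc1b was lost. Gabpb1, the partner subunit of the DNA-binding protein Gabpa, had 3909.06 reads in maDC and 1976.9 in diffDC, 2.92-fold lower (interval 2.77 to 3.09). Gabpa itself had a log2 ratio of 0.19. Ppargc1b, a coactivator of mitochondrial gene programmes, had 2169.82 and 1209.9 reads in maDC and diffDC, 2.65-fold lower, which on the authors' scale was a log2 ratio of -0.97 and no longer called. The other called genes had few reads and were named after their values were seen. Tfb1m, a methyltransferase of mitochondrial ribosomal RNA, had 131.69 reads in maDC and 585.02 in diffDC, Ppargc1a, the close relative of Ppargc1b, had 30.77 and 3.08, and Perm1 had 58 and 5.81. Nrf1, Tfam and Esrra, further regulators of this gene group, had log2 ratios of 0.08, 0.04 and -0.17 and were not called.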
